A study of Mus musculus with 22 samples.

Results

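The cytosolic ribosomal protein genes of the mouse testis, with their germ-cell paralogs, were compared between wild-type (WT) males and males without functional MLX (MLX KO). Members were the rows of the testes RNA-seq count table whose symbol starts with Rpl or Rps followed by a digit or the letter p, plus *Rpsa*, with *Rps6* kinase genes and pseudogene rows left out. This gave 85 genes of 17931 in the table. They were 4 X-linked genes (*Rps4x*, *Rpl10*, *Rpl36a* and *Rpl39*), 73 autosomal genes of the core ribosome, 7 paralog genes (*Rpl10l*, *Rpl39l*, *Rpl36al*, *Rpl3l*, *Rpl22l1*, *Rpl7l1* and *Rps27l*) and *Rps19bp1*, whose product binds a ribosomal protein and is not itself a subunit. RNA came from whole testes of 7-month-old littermates, 3 WT and 3 MLX KO, numbered 1 to 3 in pairs. The paper describes the WT males as breeders of verified fertility, so any difference in mating history goes with genotype. The MLX KO males carried a germline deletion of the *Mlx* exons that encode the dimerization and DNA-binding region, made with floxed 129S4 embryonic stem cells and a Meox2-Cre line whose Cre was crossed out again. MLX was therefore lost in all cells of the animal, and the testes are mixtures of germ cells and somatic cells. The study made more than 1 targeted line, and the sources used here do not say which line gave these libraries.

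The cytosolic ribosome of mammals joins a small and a large subunit around ribosomal RNA, and each ribosomal protein is normally present in a single copy, apart from the acidic stalk proteins. Most of these proteins are encoded by a single expressed gene, with many processed pseudogenes elsewhere in the genome. The X chromosome is silenced in male meiosis and stays largely repressed in spermatids. Several X-linked genes have an autosomal copy that germ cells use in place of the silenced gene, and *Rpl10l* and *Rpl39l* are such copies of *Rpl10* and *Rpl39*. RPL10 sits close to the catalytic centre of the large subunit, and RPL39 lines the tunnel through which the new protein leaves. A count in whole testis is a sum over all cell types, so fewer cells of a type and less RNA per cell cannot be told apart in these bulk libraries.

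The coding sequences of the pairs are shown because they decide whether reads of a paralog can be told from those of its X-linked parent. In the RefSeq annotation of GRCm38.p6, *Rpl39l* lies at chr16:10170197-10174911 on the + strand and *Rpl39* at chrX:37082518-37085222 on the - strand, each with 3 exons. Both have a coding sequence of 156 bases, and 23 of these bases differ, marked in capitals. Their whole coding sequences, from the start codon to the stop codon, are:
Rpl39l: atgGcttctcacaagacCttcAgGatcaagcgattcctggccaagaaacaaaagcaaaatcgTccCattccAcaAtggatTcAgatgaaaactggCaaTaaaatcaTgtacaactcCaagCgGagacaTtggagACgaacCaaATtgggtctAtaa
Rpl39: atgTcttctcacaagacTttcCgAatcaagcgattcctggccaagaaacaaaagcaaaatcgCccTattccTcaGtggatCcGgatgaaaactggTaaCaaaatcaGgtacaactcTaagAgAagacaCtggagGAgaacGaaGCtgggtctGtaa

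*Rpl10l* lies at chr12:66283379-66284401 on the - strand as a single exon, and *Rpl10* at chrX:74270816-74273135 on the + strand with 7 exons. Their coding sequences of 645 bases differ at 98 positions. The first 156 bases hold 26 of the differences, in capitals:
Rpl10l: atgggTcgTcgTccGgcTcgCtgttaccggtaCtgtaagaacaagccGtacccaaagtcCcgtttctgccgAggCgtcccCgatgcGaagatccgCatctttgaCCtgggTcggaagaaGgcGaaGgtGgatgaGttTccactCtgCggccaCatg
Rpl10: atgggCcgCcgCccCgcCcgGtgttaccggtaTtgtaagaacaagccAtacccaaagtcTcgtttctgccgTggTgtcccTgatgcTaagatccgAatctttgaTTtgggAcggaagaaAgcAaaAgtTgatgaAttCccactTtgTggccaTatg

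The longest identical stretch was 38 bases for the *Rpl39* pair and 23 bases for the *Rpl10* pair. The third X-linked gene with an autosomal copy, *Rpl36a*, differed from *Rpl36al* at 39 of 321 coding bases, with a longest identical stretch of 24 bases. None of the 3 pairs shared a window of 50 bases, the length of each sequenced read end, along their mRNAs. The X-linked genes do share such windows with other places in the genome. An exact copy elsewhere was found for 94.8% of the windows of *Rpl10*, 92.7% of those of *Rpl36a*, 84.6% of those of *Rps4x* and 64.4% of those of *Rpl39*. The same share was 71.4% for *Rpl36al*, 26.3% for *Rpl10l* and 0 for *Rpl39l*. How the authors' counting treated reads that fit several places is not given in the sources used here, so levels of genes with many copies are uncertain.

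The libraries held 16674678 to 19742726 counts. TMM factors, which correct for differences in RNA composition, were 0.943 to 0.961 in WT and 1.02 to 1.07 in MLX KO. *Mlx* itself had 128, 96 and 98 counts in the WT males against 94, 109 and 102 in MLX KO (log2 fold change -0.18 ± 0.14 SE, edgeR adjusted p = 0.326). Its count over the whole gene takes in exons outside the deletion, so it does not check the genotype labels. Reads of the deleted exons are not counted apart, and why the count changed little was not tested. The titles call the libraries biological replicates, and p-values measure the spread between these 3 males of each genotype. MLX KO replicate 1 stood further from the other MLX KO libraries (chi-square per degree of freedom 7.91 and 7.92) than those lay from each other (2.66). Of the 14640 genes tested, 24.8% were higher and 20.6% lower in MLX KO (edgeR quasi-likelihood test, Benjamini-Hochberg adjusted p under 0.05).

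The 4 X-linked ribosomal protein genes rose in MLX KO testes, by 1.67-fold to 2.20-fold, and were the 4 largest increases among all members. Of the 84 members tested, 10 were higher and 18 lower, or 11.9% and 21.4%, against 24.8% and 20.6% of all genes. All 4 X-linked members were higher, and the remaining 6 increases were small. *Rps4x*, of the small subunit, had 443, 366 and 450 counts in the WT males against 950, 996 and 1030 in MLX KO. Its level, in counts per 1000000 of the TMM-scaled library (CPM), rose from 24.0 ± 1.19 to 52.9 ± 3.37 (SD, n = 3), a log2 fold change of 1.14 ± 0.07 SE (edgeR adjusted p = 1.91e-06).

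*Rpl39* had 255, 199 and 267 counts in the WT males against 455, 505 and 533 in MLX KO. Every MLX KO library was above every WT library, with means of 13.7 ± 1.22 and 26.5 ± 2.66 CPM (log2 fold change 0.95 ± 0.10 SE, edgeR adjusted p = 4.06e-05). *Rpl10* had 737, 665 and 696 counts in the WT males against 1320, 1441 and 1386 in MLX KO. Its groups did not overlap either, at 40.1 ± 1.88 and 73.7 ± 5.82 CPM (log2 fold change 0.88 ± 0.07 SE, edgeR adjusted p = 6.99e-06). *Rpl36a*, whose product lies near the exit site for transfer RNA, had 199, 141 and 131 counts in the WT males against 295, 291 and 257 in MLX KO. Its levels were 8.95 ± 1.55 CPM in WT and 15.0 ± 1.26 CPM in MLX KO, and the groups again did not overlap (log2 fold change 0.74 ± 0.13 SE, edgeR adjusted p = 9.43e-04).

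**Figure D1:**
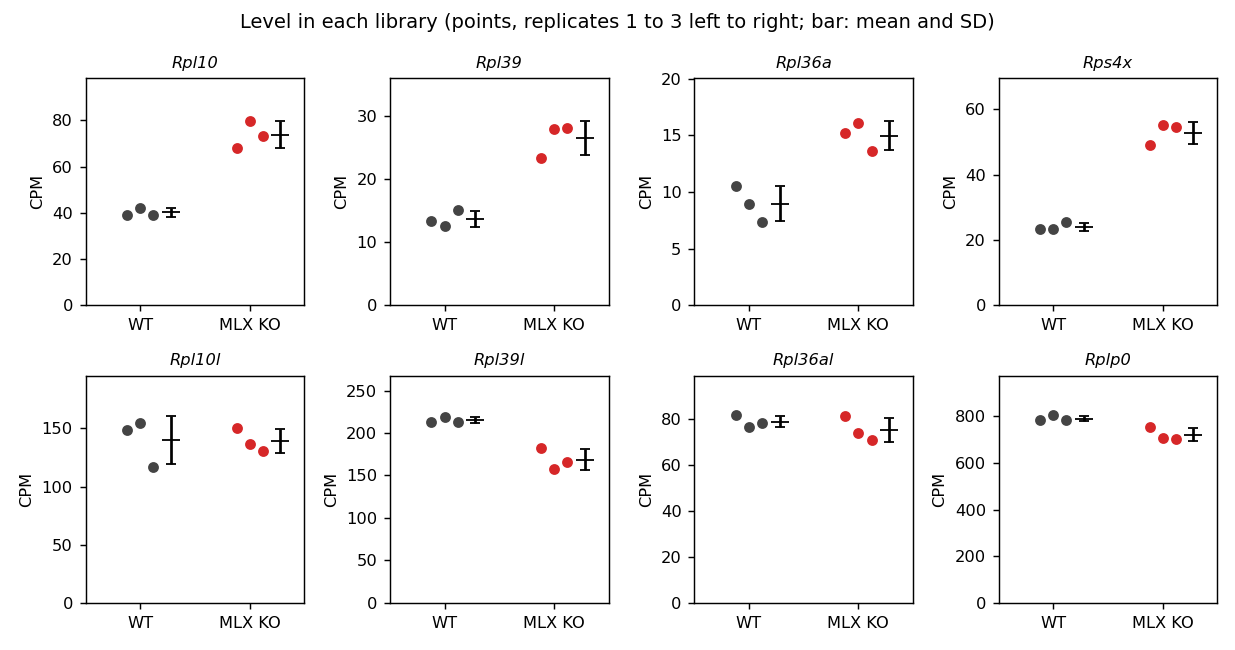
Level in counts per 1000000 (CPM, y axes from 0, each gene on its own scale) in the 3 WT and 3 MLX KO libraries (points) with the mean and SD beside them, for the 4 X-linked genes (top row), the autosomal copies *Rpl10l*, *Rpl39l* and *Rpl36al* of 3 of them, and the stalk gene *Rplp0*. MLX KO points lie above all WT points in the top row and below them for *Rpl39l* and *Rplp0*, and the groups overlap for *Rpl10l* and *Rpl36al*; CPM are TMM-scaled, and *Rplp0* rises by 0.01 (log2) with library size alone.

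As a group, other X-linked genes also moved upward. Of the 572 X-linked genes tested that are not members, 219 were higher and 75 lower, or 38.3% and 13.1%. Of all autosomal genes tested, 24.3% were higher and 20.9% lower. The median log2 fold change of the 572 X-linked genes was 0.25, and 195 of them lay below 0. The autosomal genes tested had a median of 0.02. Among those 572 genes, 103 had a log2 fold change at or above that of *Rpl36a* and 30 at or above that of *Rps4x*. The X-linked members had a median of 0.91 and ranged from 0.74 to 1.14.

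Markers of somatic cells rose in the same libraries. All 9 measured Sertoli cell markers were higher (summed level 697 to 718 CPM in WT and 1039 to 1249 in MLX KO), as were all 7 Leydig cell markers (840 to 866 and 1822 to 2388 CPM) and all 8 measured macrophage markers (81.2 to 87.7 and 175 to 182 CPM). Of 4 endothelial markers 2 were higher, and of 4 peritubular myoid markers 3. All 10 markers of round spermatids and all 10 of elongating spermatids were lower, the latter falling from a summed 23433 to 24386 CPM to 13873 to 17007 CPM. Of 10 spermatocyte markers 6 were lower, and of 10 spermatogonial markers 2 were higher and 1 lower. None of the 72 measured markers was at 0 in all libraries of a genotype. Their part in the levels of the ribosomal protein genes was not tested.

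Of the 2 germ-cell paralogs, *Rpl39l* fell, with the most negative log2 fold change of all 84 members tested, while *Rpl10l* did not pass the test. The lead of *Rpl39l* was smaller than its SE, with *Rps27* at -0.34 ± 0.30 SE and the core gene *Rps7* at -0.33 ± 0.05 SE. The difference between the paralogs was not itself tested. *Rpl39l* had 4047, 3449 and 3774 counts in the WT males against 3535, 2853 and 3131 in MLX KO. Its 3 MLX KO libraries lay between 158 and 182 CPM, below the WT range of 213 to 219 CPM, with a log2 fold change of -0.35 ± 0.06 SE (edgeR adjusted p = 6.22e-04). *Rpl10l* had 2815, 2431 and 2070 counts in the WT males against 2915, 2466 and 2458 in MLX KO. The MLX KO range of 130 to 150 CPM lay inside the WT range of 117 to 155 CPM (log2 fold change -0.01 ± 0.09 SE, edgeR adjusted p = 0.944). The sign of the *Rpl10l* value is not fixed, since it was 0.13 with library size alone and lay between -0.13 and 0.07 when single libraries were left out.

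Set against the other members, the paralogs stood in the same order. This is no separate support, since it shifts the log2 fold changes of all members by a similar amount. The log2 level of *Rpl39l* relative to the median of the other ribosomal protein genes in the same library was 0.66 ± 0.02 in WT (SD, n = 3) and 0.38 ± 0.11 in MLX KO. This difference of -0.28 was the lowest among all 84 members (exact permutation test, two-sided p = 0.1, the smallest p that 3 against 3 allows). That of *Rps7* was next, at -0.26. For *Rpl10l* the values were 0.02 ± 0.19 and 0.10 ± 0.07, a difference of 0.08 with overlapping libraries (exact permutation p = 0.8), and of -0.03 without WT replicate 3. Such relative levels do not depend on how the libraries are scaled.

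*Rpl36al*, the autosomal copy of *Rpl36a*, had 1546, 1203 and 1388 counts in the WT males against 1572, 1331 and 1337 in MLX KO. Its levels overlapped (log2 fold change -0.07 ± 0.06 SE, edgeR adjusted p = 0.374), and its sign turned with library size alone (0.07).

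Each of the 3 autosomal copies made up a smaller part of its pair in MLX KO. Within a library, the log2 ratio of *Rpl39l* to *Rpl39* counts was 3.99, 4.11 and 3.82 in the WT males against 2.96, 2.50 and 2.55 in MLX KO, a difference of -1.30. That of *Rpl10l* to *Rpl10* was 1.93, 1.87 and 1.57 against 1.14, 0.77 and 0.83 in MLX KO, a difference of -0.88. That of *Rpl36al* to *Rpl36a* was 2.95, 3.09 and 3.40 against 2.41, 2.19 and 2.38 in MLX KO, a difference of -0.82. None of the 3 ratios overlapped between genotypes, and each reached the smallest possible p (exact permutation test, two-sided p = 0.1).

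Divided by mRNA length, *Rpl39l* was 89.4 ± 0.97% of its pair in WT and 77.3 ± 2.96% in MLX KO (SD, n = 3). *Rpl10l* was 72.9 ± 2.68% in WT and 59.4 ± 3.30% in MLX KO. *Rpl36al*, which is expressed widely, was 89.3 ± 1.48% and 82.6 ± 1.20%. The autosomal copy thus had the higher length-corrected count of each pair in every library. Each X-linked gene has a larger share of windows copied elsewhere than its autosomal copy. Since the treatment of reads that fit several places is not given, the true shares are uncertain.

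The summed level of the pair was higher in MLX KO for *Rpl10*, while that for *Rpl39* depended on the scaling. With TMM factors, *Rpl39* plus *Rpl39l* was 299 ± 2.79 CPM per kb in WT and 271 ± 10.1 in MLX KO, without overlap of the libraries. With library size alone, an alternative chosen after seeing the data, it was 285 ± 0.41 and 284 ± 6.29 CPM per kb, and the libraries overlapped. *Rpl10* plus *Rpl10l* was 187 ± 21.2 and 229 ± 7.89 CPM per kb, and the libraries did not overlap (163 to 204 against 219 to 234). *Rpl36a* plus *Rpl36al* was 171 ± 7.34 and 176 ± 11.6 CPM per kb, with overlapping libraries. With library size alone, the MLX KO libraries were above all WT libraries for both of these pairs (240 ± 7.53 against 178 ± 19.7, and 185 ± 8.31 against 163 ± 8.31 CPM per kb). The sums are given without a test.

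**Figure D2:**
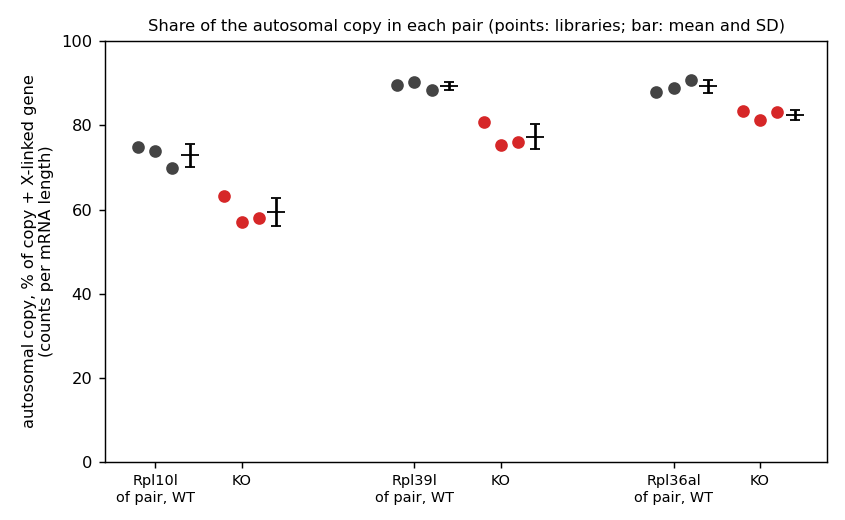
Share of the autosomal copy in the summed length-corrected counts of each pair (y axis, percent, from 0 to 100) in the 3 WT (dark) and 3 MLX KO (red) libraries, with mean and SD beside the points. All 3 shares are lower in every MLX KO library than in every WT library, falling from 72.9% to 59.4% for *Rpl10l*, from 89.4% to 77.3% for *Rpl39l* and from 89.3% to 82.6% for *Rpl36al*.

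Of the other paralogs, which have autosomal parents, only *Rpl7l1* passed the test. *Rpl7l1*, related to *Rpl7*, had 570, 489 and 540 counts in the WT males against 680, 715 and 707 in MLX KO (log2 fold change 0.29 ± 0.07 SE, edgeR adjusted p = 4.47e-03). This call was lost in DESeq2 with pairs as a block (adjusted p = 0.0735). Its parent *Rpl7* had 4031, 3248 and 3555 counts in the WT males against 3998, 3606 and 3829 in MLX KO, with overlapping levels (log2 fold change -0.03, and 0.11 with library size alone). *Rpl7l1* was the lesser of the pair, at 5.04 ± 0.18% of the summed counts per length in WT and 6.20 ± 0.44% in MLX KO.

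*Rpl22* and its paralog *Rpl22l1* lay on different sides of 0. *Rpl22*, an RNA-binding large-subunit protein, had 990, 840 and 832 counts in the WT males against 1210, 1132 and 1063 in MLX KO and rose (log2 fold change 0.25 ± 0.07 SE, edgeR adjusted p = 0.0101, and 0.0660 in DESeq2 with pairs as a block). *Rpl22l1* had 635, 574 and 642 counts in the WT males against 652, 529 and 613 in MLX KO, which did not pass the test (log2 fold change -0.15 ± 0.07 SE, edgeR adjusted p = 0.105). The log2 count ratio of *Rpl22l1* to *Rpl22* was -0.52 ± 0.14 in WT and -0.93 ± 0.15 in MLX KO (SD, n = 3), a difference of -0.41 without overlap (exact permutation p = 0.1).

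*Rps27l*, a paralog known as a target of p53, had 604, 494 and 482 counts in the WT males against 618, 628 and 658 in MLX KO (log2 fold change 0.17 ± 0.08 SE, edgeR adjusted p = 0.103). Its parent *Rps27* had only 20, 28 and 19 counts in the WT males against 15, 21 and 21 in MLX KO, and every 50-base window of its mRNA has an exact copy elsewhere. The ratio of *Rps27l* to *Rps27* therefore rests on few counts, and its libraries overlapped (exact permutation p = 0.2). *Rpl3l*, the muscle paralog of *Rpl3*, had 4, 9 and 3 counts in the WT males against 7, 5 and 9 in MLX KO, too few to be tested. *Rpl3* itself had 3281, 2778 and 2782 counts in the WT males against 3603, 3191 and 3366 in MLX KO (log2 fold change 0.09 ± 0.05 SE, edgeR adjusted p = 0.184). *Rps19bp1*, with 166 to 223 counts a WT library and 212 to 226 a MLX KO library, did not pass the test either (log2 fold change 0.04 ± 0.10 SE, edgeR adjusted p = 0.772), and its sign changed when WT replicate 2 or KO replicate 2 was left out.

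The 73 autosomal core genes moved little. Of these, 17 were lower and 5 higher, or 23.3% and 6.85%, against 20.6% and 24.8% of all genes. The share of decreases was thus near that of all genes, while that of increases was smaller. The median log2 fold change was -0.06, and all lay between -0.34 and 0.31. Only 4 of the 84 members tested, the X-linked genes, changed by more than 0.5 in size, against 21.8% of all genes. That share is over genes of every level and was not matched to the levels of the members. The median standard error of a member was 0.05, so that changes of 0.13 on the log2 scale could pass the test. All 28 called members moved in the same direction in 3 of 3 pairs. They were selected in these same libraries, so this adds no separate support. Levels did not overlap between genotypes for 42 of 84 members, against 56.2% of all genes.

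**Figure D3:**
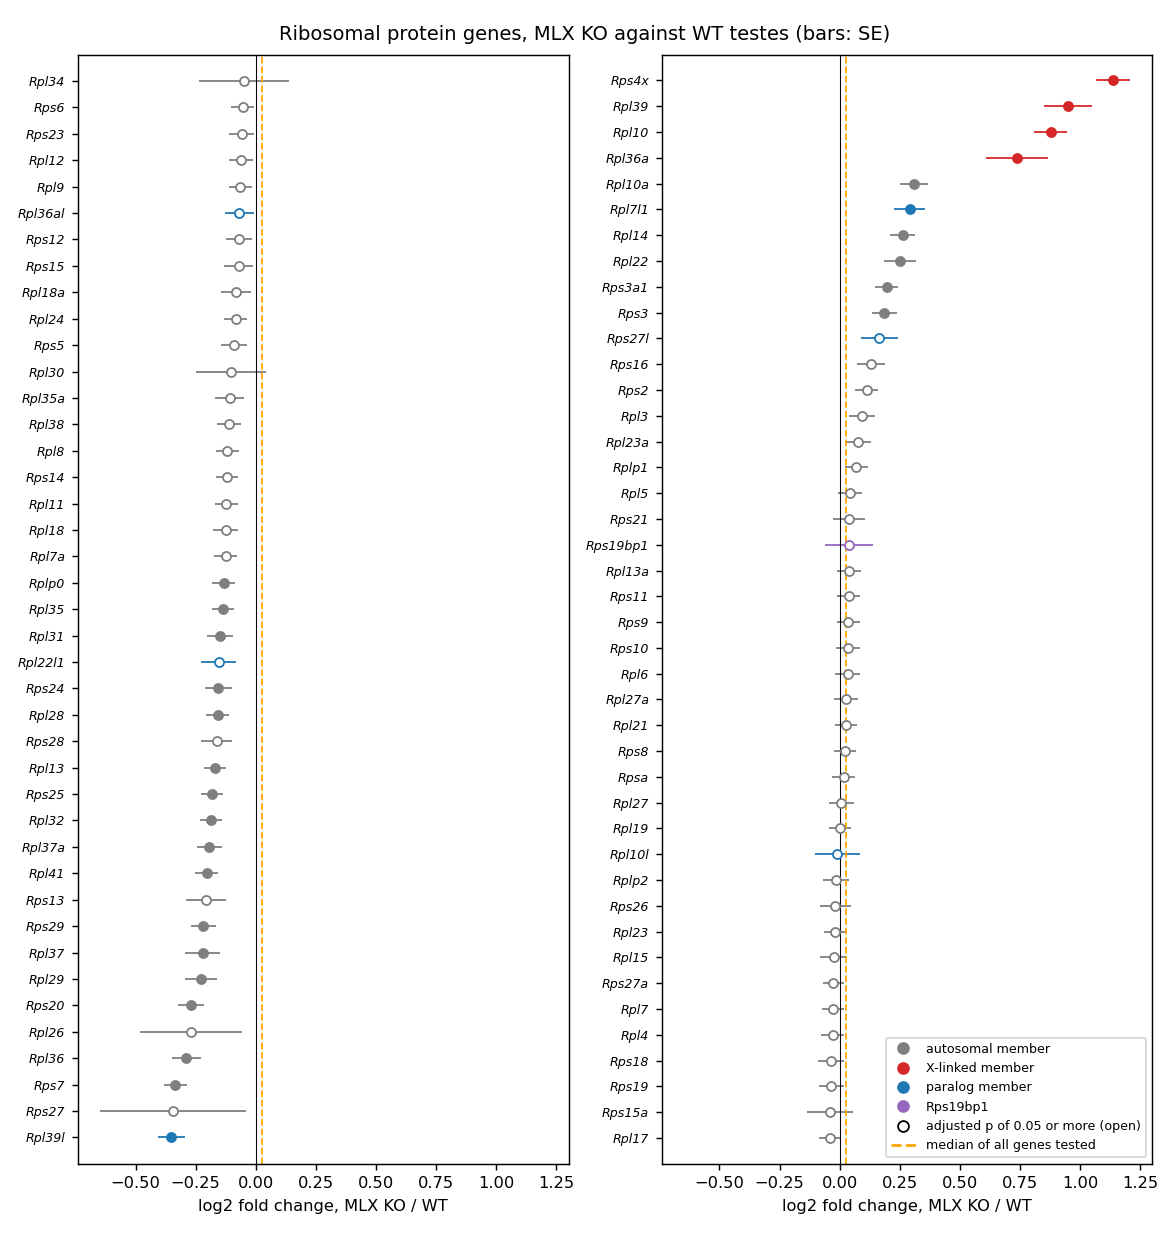
Log2 fold change of MLX KO over WT (x axis) with its SE for 83 of the 84 members tested, in order, the lower 41 on the left and the upper 42 on the right; filled points have an edgeR adjusted p under 0.05, and the dashed line marks the median of all genes tested, 0.03. The 4 X-linked genes (red) stand apart at 0.74 to 1.14, and *Rpl39l* (blue, bottom left) is the lowest at -0.35, just below *Rps27* and *Rps7*; with library size alone the points shift to the right and the autosomal median turns positive.

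Among the members that passed the test, the largest decreases after *Rpl39l* were those of *Rps7*, *Rpl36*, *Rps20*, *Rpl29* and *Rpl37*. *Rps7*, a small-subunit protein, had 7098, 5806 and 6605 counts in the WT males against 5874, 5434 and 5315 in MLX KO, or 372 ± 2.54 and 295 ± 11.9 CPM (log2 fold change -0.33 ± 0.05 SE, edgeR adjusted p = 2.84e-04). *Rpl36* had 2495, 2177 and 2537 counts in the WT males against 2373, 1954 and 2029 in MLX KO (log2 fold change -0.29 ± 0.06 SE, edgeR adjusted p = 2.78e-03). *Rps20*, in the head of the small subunit, had 5741, 4925 and 5480 counts in the WT males against 5288, 4595 and 4550 in MLX KO (log2 fold change -0.27 ± 0.05 SE, edgeR adjusted p = 2.11e-03). After scaling, all MLX KO libraries lay below all WT libraries for these 3 genes, and they stayed lower and past the threshold under all 14 alternatives run.

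*Rpl29* (3202, 2499 and 2721 counts against 2922, 2428 and 2378) and *Rpl37* (1219, 955 and 1046 against 1117, 962 and 889) fell by 0.23 and 0.22 on the log2 scale (edgeR adjusted p = 0.0171 and 0.0285). These calls were lost with library size alone and without WT replicate 1, KO replicate 2 or KO replicate 3, and that of *Rpl37* also without WT replicate 2. The other called decreases, from *Rps29* at -0.22 to *Rplp0* at -0.13, included *Rpl41*, *Rpl37a*, *Rpl32*, *Rps25*, *Rpl13*, *Rpl28*, *Rps24*, *Rpl31* and *Rpl35*. Both subunits were among them, with 11 of 43 autosomal large-subunit genes lower and 3 higher (25.6% and 6.98%). Of 30 small-subunit genes, 6 were lower and 2 higher (20% and 6.67%), against 20.6% lower and 24.8% higher of all genes. The medians were -0.06 and -0.05.

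The autosomal increases were *Rpl10a*, *Rpl14*, *Rpl22*, *Rps3a1* and *Rps3*. *Rpl10a*, which forms the L1 stalk at the exit site, had 1054, 907 and 1077 counts in the WT males against 1311, 1354 and 1385 in MLX KO (log2 fold change 0.31 ± 0.06 SE, edgeR adjusted p = 1.41e-03). Its groups did not overlap, at 55.6 to 60.7 CPM in WT and 67.6 to 74.9 CPM in MLX KO. *Rpl14* rose by 0.26, *Rps3a1* by 0.20 and *Rps3*, at the entry of the mRNA channel, by 0.19 (edgeR adjusted p = 1.78e-03, 6.24e-03 and 0.0135). In DESeq2 with pairs as a block, the 4 X-linked genes and *Rpl10a* were the only members still higher, 5 in place of 10.

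Of the stalk genes, which recruit the elongation factors to the ribosome, *Rplp0* passed the test narrowly. *Rplp0* had 14823, 12644 and 13900 counts in the WT males against 14573, 12788 and 13250 in MLX KO, or 781 to 804 CPM in WT and 701 to 752 CPM in MLX KO. Its log2 fold change was -0.13 ± 0.05 SE (edgeR adjusted p = 0.0436), which turned to 0.01 with library size alone and was past the threshold in 6 of 14 alternatives. *Rplp1* (2995, 2641 and 2792 counts against 3353, 3064 and 3111) and *Rplp2* (1479, 1244 and 1335 against 1541, 1412 and 1365) did not pass the test, at 0.07 and -0.02 (edgeR adjusted p = 0.260 and 0.832). *Rpsa*, of the small subunit, did not pass it either (3781, 3029 and 3354 counts against 3918, 3565 and 3567, log2 fold change 0.02, adjusted p = 0.792 in edgeR). The signs of *Rplp2* and *Rpsa* changed between alternatives.

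The direction of the autosomal members as a group depended on the scaling, while that of the X-linked members did not. With library size alone, without TMM factors, 32 members were higher and 4 lower, in place of 10 and 18, and the autosomal median, paralogs and *Rps19bp1* included, was 0.08 in place of -0.06. This scaling moved the median of all genes from 0.03 to 0.16, and the higher share of all called genes from 54.7% to 80.8%. Relative to the median of all genes, the autosomal members stood at -0.08 under both scalings, and the X-linked members at 0.89. Over all 14 alternatives these differences ranged from -0.12 to -0.05 and from 0.85 to 0.95. The 4 members lower under library size alone were *Rpl39l*, *Rps7*, *Rpl36* and *Rps20*.

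The count of 18 lower members also rested on single libraries. It was 10 without WT replicate 1, 11 without WT replicate 2, 9 without KO replicate 2 and 8 without KO replicate 3. Without MLX KO replicate 1, the library that stood apart, it was 25, with 12 members higher and X-linked and autosomal medians of 0.98 and -0.09. In all 14 alternatives the 4 X-linked members were called higher and *Rpl39l* lower.

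**Figure D4:**
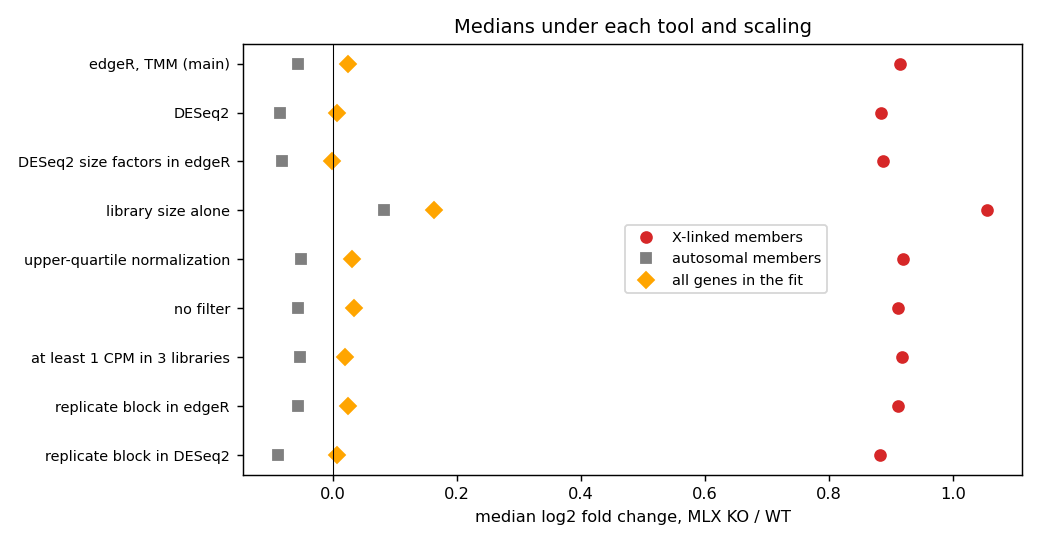
Median log2 fold change (x axis) of the 4 X-linked members (red circles), the autosomal members with paralogs and *Rps19bp1* (grey squares) and all genes in the fit (orange diamonds) under the main fit and 8 other tools, scalings, filters and pair blocks (rows). The autosomal median lies left of the all-gene median in every row and is positive with library size alone (0.08), where the all-gene median is 0.16.

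The members together took 1.17, 1.16 and 1.13% of all deposited counts in the WT libraries against 1.22, 1.23 and 1.19% in those of MLX KO. This share was higher in each MLX KO library, by 0.0598 percentage points in the mean (exact permutation p = 0.1). The X-linked members added 0.00939 of these points. The TMM-scaled sum ran the other way, at 11834 to 12259 CPM in WT and 11173 to 11914 CPM in MLX KO, with overlapping libraries. The total output of the family was therefore not shown to rise or fall.

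Per length, *Rpl41*, which encodes a very short peptide, was the most abundant member, at 731 ± 10.4 CPM per kb in WT and 634 ± 30.6 in MLX KO. *Rplp0* followed in both genotypes, and *Rpl13* (469 ± 1.23) and *Rpl32* (467 ± 10.5) came next in WT without differing beyond their spread. *Rpl39l* ranked 17th of 85 in WT, at 267 ± 4.48 CPM per kb, and 30th in MLX KO, at 209 ± 15.5. Its WT neighbours *Rps13* (268 ± 34.7) and *Rpl35* (261 ± 6.10) did not differ from it beyond their spread. *Rpl10l* ranked 53rd in both genotypes, at 137 ± 19.9 and 136 ± 10.1 CPM per kb. The X-linked genes stood near the bottom in WT, with *Rpl10* 73rd (50.5 ± 2.36), *Rpl39* 74th (31.6 ± 2.82), *Rps4x* 75th (24.7 ± 1.22) and *Rpl36a* 78th (18.3 ± 3.17). In MLX KO, *Rpl10* stood 62nd (92.7 ± 7.32), *Rpl39* 71st (61.2 ± 6.14), *Rps4x* 75th (54.4 ± 3.46) and *Rpl36a* 76th (30.6 ± 2.59). The median autosomal core gene was at 186 CPM per kb in WT and 177 in MLX KO. This order rests on the annotated mRNA lengths, and the lengths in these testes were not measured. *Rps20*, at 308 CPM in WT, ranked 63rd with an mRNA of 3446 bases, and *Rps15a* ranked 76th with 5136 bases.

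Below the X-linked genes lay members with very few counts, among them *Rps27*, *Rpl26* (27 to 39 counts a library), *Rpl30* (76 to 96) and *Rpl34* (95 to 157). Copies elsewhere in the genome covered 63.7% to 100% of the windows of these 4 genes. Over all 85 members, the median share of windows with an exact copy was 69.6%, and 55 members had over 50%, whereas the median over the 77 mitochondrial ribosomal protein genes was 0. Across the 73 autosomal core genes, the share of copied windows and the log2 fold change had a Spearman correlation of -0.14. Log2 fold change and mRNA length correlated at 0.31 over the same genes and at 0.07 over 14612 genes tested, a description over genes that share the same 6 libraries.

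Ribosomal protein genes are known for a pyrimidine tract at the transcription start, which lets their mRNAs be translated according to nutrient supply, and MLX and its partners bind DNA at E-boxes. The starts of the 4 X-linked genes and of the 2 germ-cell paralogs are shown because these genes moved apart. Each sequence runs from 40 bases before the start of the curated RefSeq mRNA to 20 bases from it (GRCm38.p6), and a run of at least 6 C or T that touches the 5 bases on either side of the start is in capitals:
Rps4x (chrX:102189372-102189431, - strand): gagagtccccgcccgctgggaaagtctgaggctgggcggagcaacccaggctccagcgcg
Rpl10 (chrX:74270776-74270835, + strand): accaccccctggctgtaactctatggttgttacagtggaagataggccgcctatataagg
Rpl36a (chrX:134585614-134585673, + strand): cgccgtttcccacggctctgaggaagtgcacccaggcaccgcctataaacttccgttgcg
Rpl39 (chrX:37085203-37085262, - strand): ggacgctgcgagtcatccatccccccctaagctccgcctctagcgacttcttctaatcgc
Rpl10l (chr12:66284382-66284441, - strand): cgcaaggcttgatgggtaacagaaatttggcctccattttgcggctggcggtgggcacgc
Rpl39l (chr16:10170188-10170247, + strand): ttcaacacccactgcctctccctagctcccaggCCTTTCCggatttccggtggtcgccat

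Such a run, 7 bases long, was found beside the curated start of *Rpl39l* (chr16, base 10170228) and not at the starts of the other 5 genes. It covers the 7 bases just before that start, so none of it lies in the curated mRNA. No run was found at the start of the predicted *Rpl39l* transcript, 31 bases upstream at base 10170197, where the gene's annotated span begins. All these starts are annotated ones and were not measured in these testes. The search also stopped at 5 bases on either side, and the printed *Rpl39* sequence holds a run of C and T further inside the mRNA. Absence of a run at these starts therefore does not show that the mRNAs lack a tract. The counts that follow have the same limit and also take in runs wholly before the start. Of the 65 members with a promoter in the RefSeq table, 32 had a run, or 49.2%, against 23.0% of 27025 promoters and 26.5% of 68 mitochondrial ribosomal protein genes. Autosomal core genes had it in 29 of 53 cases and the 7 paralogs in 3, which were *Rpl39l*, *Rpl22l1* and *Rps27l*. The E-box letters CACGTG, which read the same on both strands, occurred within 250 bases before to 50 bases after the start of 6 of the 65 members, or 9.23%, against 8.09% of all promoters. These 6 were *Rpl13a*, *Rpl14*, *Rpl19*, *Rpl23*, *Rpl34* and *Rps19*, of which *Rpl14* was called higher. No X-linked or paralog member had the letters in this window.

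Genes of neighbouring steps of translation were read from lists. The 77 mitochondrial ribosomal protein genes, which serve the separate ribosome of mitochondria, had a median log2 fold change of -0.02, with 4 higher (*Mrpl23* 0.51, *Mrps6* 0.26 and *Mrps7* 0.26 among them) and 6 lower, led by *Mrpl54* at -0.33 (edgeR adjusted p = 1.92e-03). Of the 5 elongation factor genes tested, 3 were lower, *Eef1d* (-0.37), *Eef2* (-0.30) and *Eef1g* (-0.30), and *Eef1b2* was higher (0.18). *Fau*, which encodes a ribosomal protein fused to a ubiquitin-like protein, was lower, at -0.22 (edgeR adjusted p = 0.0129). Of 16 ribosome biogenesis genes, *Ubtf* (0.43), *Nop56* (0.32) and *Ncl* (0.19) were higher and *Nop2* (-0.17) lower. Beside these, the autosomal core ribosomal protein genes had 5 higher and 17 lower of 73 and a median of -0.06. Their shares were 6.85% higher and 23.3% lower, those of the mitochondrial list 5.19% and 7.79%, and those of all genes 24.8% and 20.6%.

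**Figure D5:**
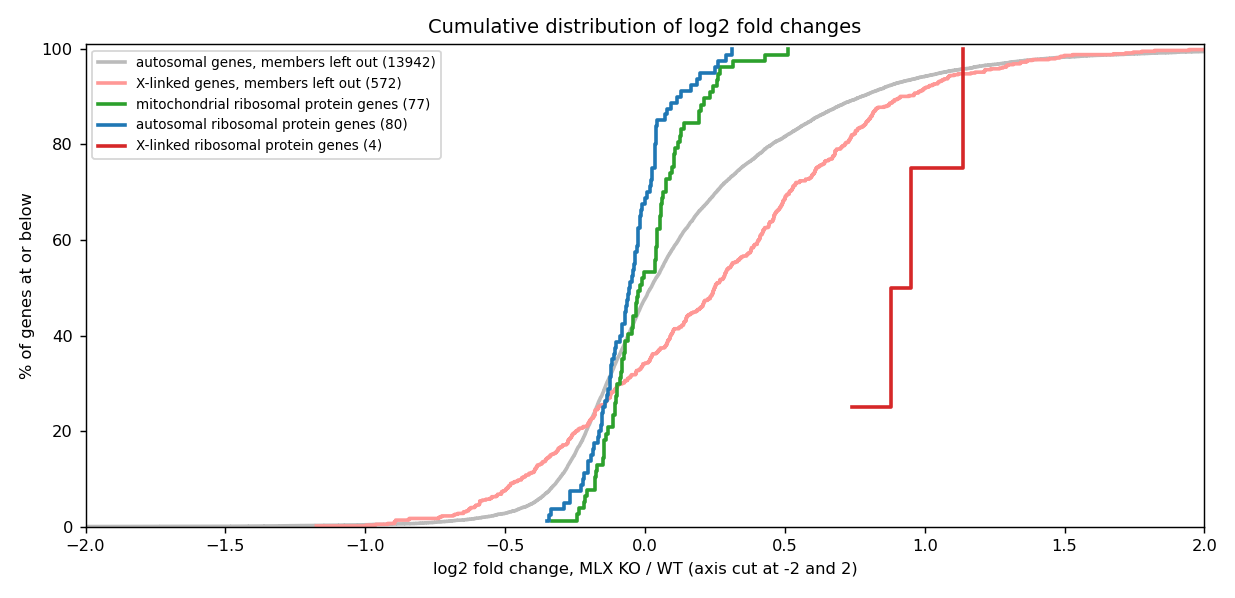
Cumulative percent of genes (y axis) at or below each log2 fold change (x axis, cut at both ends) for autosomal and X-linked genes outside the family, mitochondrial ribosomal protein genes, and autosomal and X-linked ribosomal protein genes, with the number of genes in the legend. The autosomal ribosomal protein curve (blue) is steep and spans -0.35 to 0.31, while the 4 X-linked members (red) lie at 0.74 to 1.14, right of the median of the other X-linked genes, 0.25.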

How the data were processed

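RNA was extracted with Trizol from the testes of the 6 males and sequenced as paired reads of 50 bases per end. The deposited table holds 1 raw count for each gene symbol in each library, from reads that the authors aligned to mm10 with TopHat. The submitters' processing notes also name bcl2fastq 1.8.4, Bowtie2, DESeq2 and bedtools. The counting tool, the gene annotation and the use of strand are not given in the sources used here. The authors' own comparison in the deposited table, a mean normalized signal, a log2 fold change, its standard error and a test score, and p-values, was not used. The ChIP-Seq samples were not analysed here.

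Of 17933 rows, 2 repeated another row, which left 17931 symbols, 17248 matched to RefSeq by current and 648 by older symbol. Counts were filtered in edgeR 4.0.16 (R 4.3.3) at a minimum of 10, scaled by TMM and tested by quasi-likelihood in a model with genotype alone. P-values were adjusted over 14640 genes by Benjamini-Hochberg, and 0.05 was the threshold. CPM are counts per 1000000 of the TMM-adjusted library size of the genes tested. Log2 levels used a prior count of 2 and count ratios a pseudocount of 0.5. Levels per kb were divided by the length of the RefSeq mRNA with the longest coding sequence. With 3 libraries a genotype, an exact permutation p cannot go below 0.1.

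The comparison was repeated in DESeq2 1.42.0, with pairs as a block in both tools, without each library in turn, without the filter or with 1 CPM in 3 libraries as the minimum, and with 3 other scalings (upper quartile, DESeq2 size factors, library size alone). The paper describes the males as littermates of matched age in 3 pairs, and the titles call the replicates paired. That the same number marks a littermate pair was inferred from these. Deviations of same-numbered libraries from their group means correlated at 0.145, 0.0363 and 0.121, and those of other libraries at most at 0.0330. No library was a duplicate of another (chi-square per degree of freedom at least 2.66). The code was tested on simulated data.

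The members and lists were chosen with earlier results of these data known. Values in each library are given for X-linked genes, paralogs and their parents, stalk genes and Rpsa, and for the 6 called members that rose most and the 6 that fell most. The Rack1 gene and the paralog gene Rps4l were not analysed here, nor were the Sertoli marker Rhox5 and the macrophage marker Adgre1. The values of 1 other member and of 1 other listed gene are not reported here. Rpl3l and Eef1a2 had too few counts to be tested.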

Additional observations from a re-analysis of the deposited data

How the results depend on the processing

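With library size alone the median log2 fold change of the ribosomal protein genes was 0.0930 (main -0.04), that of the autosomal members 0.0824 and that of the X-linked members 1.05, with 32 members higher and 4 lower and 1268 of all genes lower. Rpl10l (0.13), Rpl36al (0.0702), Rpl7 (0.11), Rplp0 (0.00592) and Rplp2 (0.12) then turned positive. This setting leaves out the TMM factors, which separate the genotypes. Medians of all members were -0.0717 in DESeq2, -0.0720 with the replicate block and -0.0698 with its size factors in edgeR. Autosomal medians were -0.0844, -0.0879 and -0.0821. The replicate block in DESeq2 left 2193 of all genes and 5 members higher. The replicate block in edgeR gave 10 members higher and 17 lower. Rpsa had -0.0129 in DESeq2, -0.00846 with its size factors and -0.0131 with the block.

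Leaving out each library gave 8 to 25 members lower, member medians of -0.0812 to -0.0154 and autosomal medians of -0.0856 to -0.0217. Log2 fold changes ranged from -0.126 to 0.0661 for Rpl10l, from -0.0399 to 0.0311 for Rplp2, from -0.00233 to 0.0496 for Rpsa and from -0.00913 to 0.0846 for Rps19bp1. Rpl10l relative to the other members ranged from -0.0338 to 0.144. The causes were not tested. Differences within pairs gave the count ratios, relative levels and share their main values, and 3 pairs allow no p below 0.25. Another pseudocount or denominator changed none of their directions. Depth limits Rps27, with 15 to 28 counts a library and an SE of 0.30 on the log2 scale.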

Other observations

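The pairs of an X-linked gene and an autosomal germ-cell copy outside the ribosome were chosen after the values were seen. The log2 count ratio of Pgk2 to Pgk1, which encode a glycolytic kinase, fell by 0.88 between WT and MLX KO, and that of Pdha2 to Pdha1, subunits of pyruvate dehydrogenase, fell by 1.05 (exact permutation p = 0.1 each, the smallest possible). Pgk1 and Pdha1 had log2 fold changes of 0.38 and 0.87, and Pgk2 and Pdha2 of -0.50 and -0.18 (edgeR adjusted p = 3.45e-03, 9.65e-05, 6.46e-05 and 0.0177). Cstf2t to Cstf2, which act in mRNA 3' end processing, had a difference of 0.11 (exact permutation p = 0.3), and its X-linked parent Cstf2 was lower, at -0.24 (edgeR adjusted p = 7.12e-03). Utp14b to Utp14a, which act in ribosome biogenesis, had a difference of -0.09 (exact permutation p = 0.2). Of these 4 pairs, 2 moved as the ribosomal pairs did.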
